A study of Rattus norvegicus with 48 samples.

Results

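Kidneys of untreated rats of strain FL were compared with kidneys of untreated rats of strain F, 4 arrays against 4, which are 8 of the 48 arrays of the study. Arrays were taken by the strain and the day in their labels, and day 0 is the group gavaged with vegetable oil alone. The study hybridised kidney RNA of male rats of 4 strains (F, L, FL and LF) at 3 times to exon arrays, with 4 arrays in each of 12 groups. Rats were given as 12 weeks old in one label and as 12 to 14 weeks in the protocol, and each group held 8 rats. Day 7 and day 10 rats had indole-3-carbinol at 100 mg/kg/day. The labels do not expand the strain names. As known of this study from elsewhere, F and L are rats that carry an inducible transgene under the Cyp1a1 promoter, FL is an F rat with an exchanged stretch of L chromosome 10 that holds Ace, and LF is the reverse exchange. All 4 strains then share the transgene, and day 0 is its uninduced state. The labels leave unsaid how many rats went on an array, so p-values measure the spread between arrays.

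A congenic strain is made by crossing a donor segment into a host strain and backcrossing to the host until, in principle, the segment alone is of donor origin. Genes in the segment can then differ from the host in sequence or in expression, and genes elsewhere can follow them. Ace encodes angiotensin-converting enzyme, which makes angiotensin II, the peptide that constricts vessels and drives salt retention, and which also breaks down bradykinin. In the kidney the enzyme lies on the brush border of the proximal tubule and on endothelium.

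Each value below is a log2 intensity, and a gene value is the median polish over the probe sets of a gene. Differences are FL minus F with the limma SE, and a call is a Benjamini-Hochberg adjusted p under 0.05 over 7997 genes in 1 limma fit of all 48 arrays. Array medians lay between 6.34 and 6.42 in F and between 6.16 and 6.47 in FL, against 6.03 to 6.61 over the whole study. The lowest FL median was that of replicate 3. The kidney identity of the samples was checked on 3 genes. Umod, the main protein of urine and a product of the thick ascending limb, lay between 12.7 and 12.96 in F and between 12.7 and 12.9 in FL. Slc34a1, a phosphate transporter of the proximal tubule, lay between 11.7 and 11.9 in all 8 arrays. Aqp2, the water channel of the collecting duct, was at 10.3 to 10.4 in F and 9.85 to 10.4 in FL.

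At day 0 the kidneys of the pair of strains differed in few genes. Of 7997 genes 6 were called, which is 0.0750%, with 3 lower in FL (Dnajb12, Ace and Pitpnm1) and 3 higher (Asns, Atf5 and Nxph4), or 0.0375% in each direction. The lower genes were 1.88-fold to 6.10-fold down, and the higher genes 1.63-fold to 2.04-fold up. At an unadjusted p under 0.05 there were 331 genes (4.14%). The median difference over all genes was -0.04, and 4994 genes were lower in FL. With the replicate number as a block 11 genes were called (0.138%), namely these 6 and Nupr1, Cyb5b, Retsat, Scg5 and Akr1b10. In a fit of these 8 arrays alone only Ace was called. That fit has far fewer arrays behind the spread and takes it from the compared groups only. Its adjusted p was 0.236 for Dnajb12, 0.119 for Pitpnm1 and 0.272 for both Asns and Atf5. The 6 genes lie on 5 chromosomes, Pitpnm1 and Atf5 on 1, Asns on 4, Nxph4 on 7, Ace on 10 and Dnajb12 on 20.

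**Figure D1:**
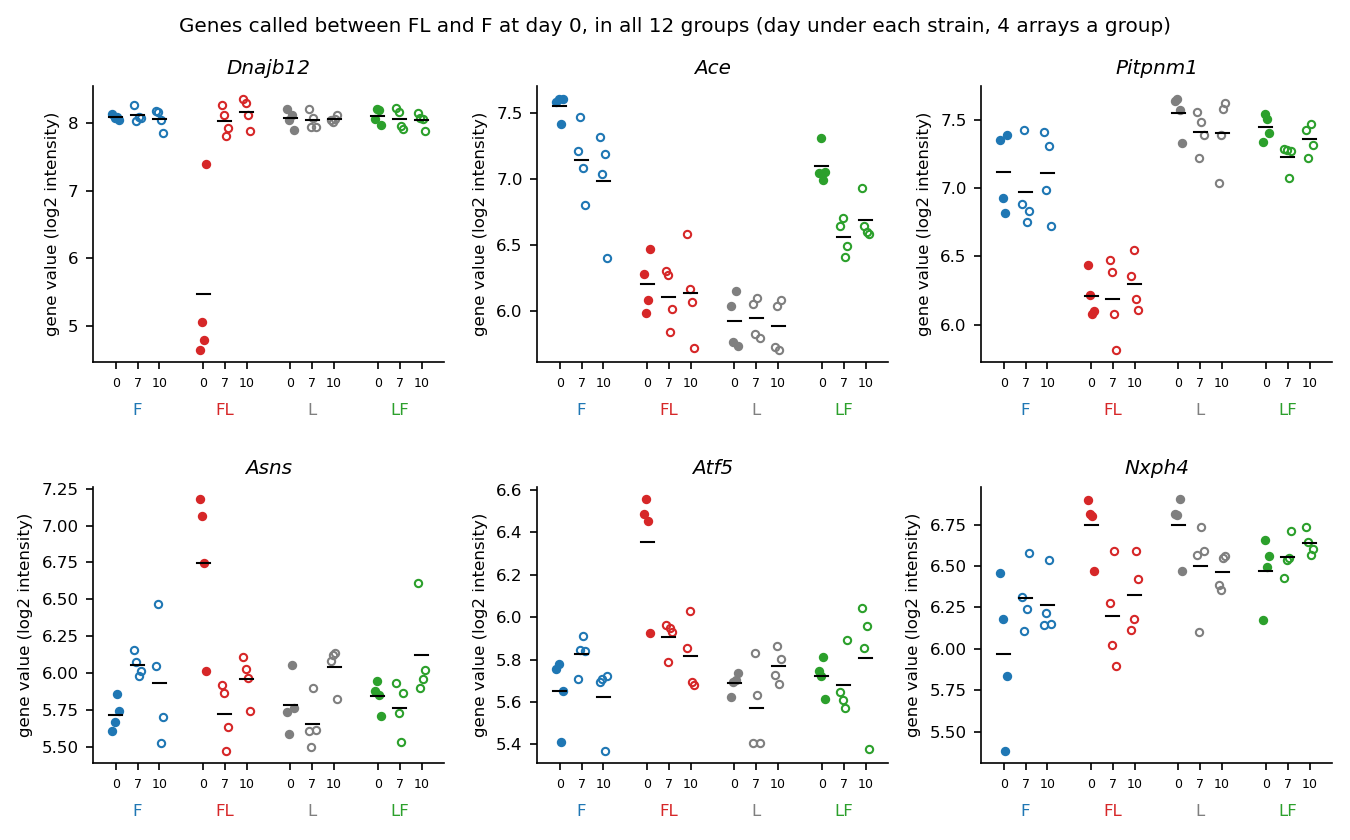
Gene values (log2 intensity, vertical axis) of the 6 called genes in the 12 groups, with strain and day on the horizontal axis, 1 point per array (filled at day 0) and a bar at the mean of 4. Ace and Pitpnm1 had a lower mean in FL than in F at each time, whereas the 3 low arrays of Dnajb12 and the high arrays of Asns and Atf5 were those of FL at day 0.

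Ace was lower in FL on every array. The 4 F arrays read 7.58, 7.61, 7.42 and 7.61, and the 4 FL arrays 6.28, 5.99, 6.08 and 6.47. The groups did not overlap, and the difference was -1.35 ± 0.16 (adjusted p = 7.74e-07), or 2.55-fold. Of the 35 probe sets of Ace 33 were lower in FL, 14 of them past the test over all 92401 probe sets, where 0.0584% were called. The median difference per probe set was -1.38, and 1 probe set, 0.29 higher in FL, departed from the rest of the gene. In the other strain pair, on other arrays, Ace moved the opposite way, with LF arrays at 7.04, 7.31, 6.99 and 7.05 and L arrays at 6.04, 5.77, 6.15 and 5.74 (LF minus L 1.18 ± 0.16, adjusted p = 2.41e-05, where 0.250% of genes were called). FL arrays overlapped L arrays, and LF arrays lay between F and L. FL minus F differed from L minus LF by -0.17 ± 0.23, which was not called in limma (0.150% of genes were). After 7 and 10 days of indole-3-carbinol FL minus F was -1.04 and -0.85 (adjusted p = 0.000413 and 0.0187), again on other arrays, in comparisons where 0.738% and 0.0250% of genes were called.

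None of the genes next to Ace was called. The measured neighbours on chromosome 10 are Marchf10, an E3 ubiquitin ligase of the membrane-associated family, and Efcab3 on one side, and Kcnh6, a voltage-gated potassium channel, and Strada, the pseudokinase that activates LKB1, on the other. Their differences were -0.03, 0.004, -0.08 and -0.15, none called. The direction of Marchf10 turned when each array's median was subtracted (0.023), and that of Kcnh6 with the mean of probe sets (0.030). Over the 25 measured genes on each side, 50 in all, 0 were called in limma and 2 had an unadjusted p under 0.05. Their differences ran from -0.34 (G6pc3) to 0.48 (Cacng5), with a median of -0.03. Chromosome 10 as a whole held 677 measured genes, 1 called, and 24 with an unadjusted p under 0.05 (3.55%, against 4.14% over all genes).

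**Figure D2:**
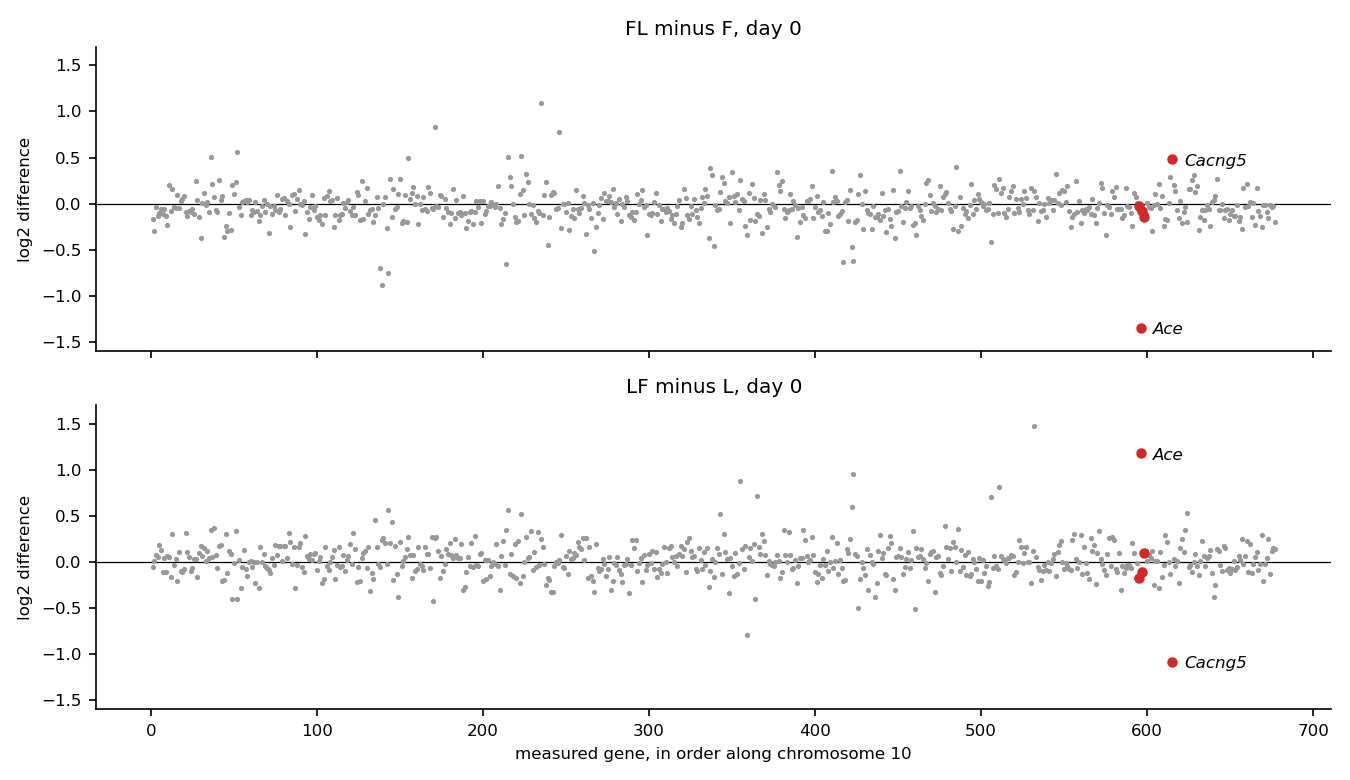
Log2 difference of each measured gene (vertical axis) in order along chromosome 10 (horizontal axis, 677 genes), for FL minus F above and LF minus L below, both at day 0. Ace has opposite signs in the panels, at -1.35 and 1.18, and is drawn in red with Marchf10, Kcnh6, Strada and Cacng5. In the lower panel Cacng5 differs by nearly as much the other way, at -1.09.

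Cacng5, which encodes a gamma subunit related to those of calcium channels and glutamate receptors, lies 19 measured genes beyond Ace and was singled out after its values were seen. It read 8.68, 8.53, 8.28 and 8.11 in F and 9.39, 8.85, 8.65 and 8.64 in FL. The lower FL arrays lay below the highest F array, and the difference of 0.48 ± 0.24 was not called (adjusted p = 0.999). The difference reached 0.98 on the day 7 arrays (adjusted p = 0.0338) and 1.14 on those of day 10 (adjusted p = 0.0687), and LF minus L at day 0 was -1.09 (adjusted p = 0.0228).

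Another gene of chromosome 10, also picked after its values were seen, differed in a single probe set. Of the 19 probe sets of Ddx5, an RNA helicase gene on chromosome 10 that acts in splicing and transcription, 1 differed by -0.74 from a mean of 10.7 in F, while the gene value differed by -0.05. Relative to the gene value it was called (limma, adjusted p = 0.00322). The same probe set was lower in FL at days 7 and 10 (-0.99 and -0.65) and higher in LF than in L (0.61).

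Dnajb12 gave the widest difference of all genes. It encodes a membrane J-domain protein of the endoplasmic reticulum, which works with HSP70 chaperones in the quality control and degradation of membrane proteins. F arrays read 8.13, 8.08, 8.09 and 8.04, and FL arrays 4.65, 5.06, 4.79 and 7.40. FL replicates 1 to 3 were far below every other array of the study, and replicate 4 stood between them and F. The difference was -2.61 ± 0.27 (adjusted p = 2.57e-08), or 6.10-fold, and -3.25 without FL replicate 4. This SE and p take their spread from all 12 groups, whereas the FL arrays themselves spread widely and the F arrays little. In a limma fit of the 8 F and FL arrays of day 0 alone the adjusted p was 0.236. The 40 arrays outside these 8 lay between 7.81 and 8.36. FL arrays at day 7 read 8.27, 8.11, 7.81 and 7.92, and at day 10 8.36, 8.30, 8.12 and 7.87, so that FL minus F was -0.09 and 0.10 at those days, neither called. The change of the difference from day 0 was 2.52 at day 7 and 2.71 at day 10 (adjusted p = 0.000397 and 7.91e-05, where 0.0625% and 0.0125% of genes were called), and the difference from the other strain pair was -2.57 (adjusted p = 0.000262).

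Low signal was seen in most probe sets of Dnajb12. Of its 23 probe sets 22 were lower in FL and 18 were called, with differences from -4.22 to 0.04. In 20 probe sets the FL arrays 1 to 3 were all below every F array, and in 20 replicate 4 was the highest FL array. A pair of probe sets differed little (-0.13 and 0.04, from 6.39 and 6.43 in F), although others as dim in F fell. Probe set use, tested with limma diffSplice on 7001 genes with 3 or more probe sets, ranked Dnajb12 first (adjusted p = 6.85e-21). The probe set tests relative to the gene value called some sets with a wider difference than the gene, such as -4.22. They also called some with a smaller one, such as 0.04.

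**Figure D3:**
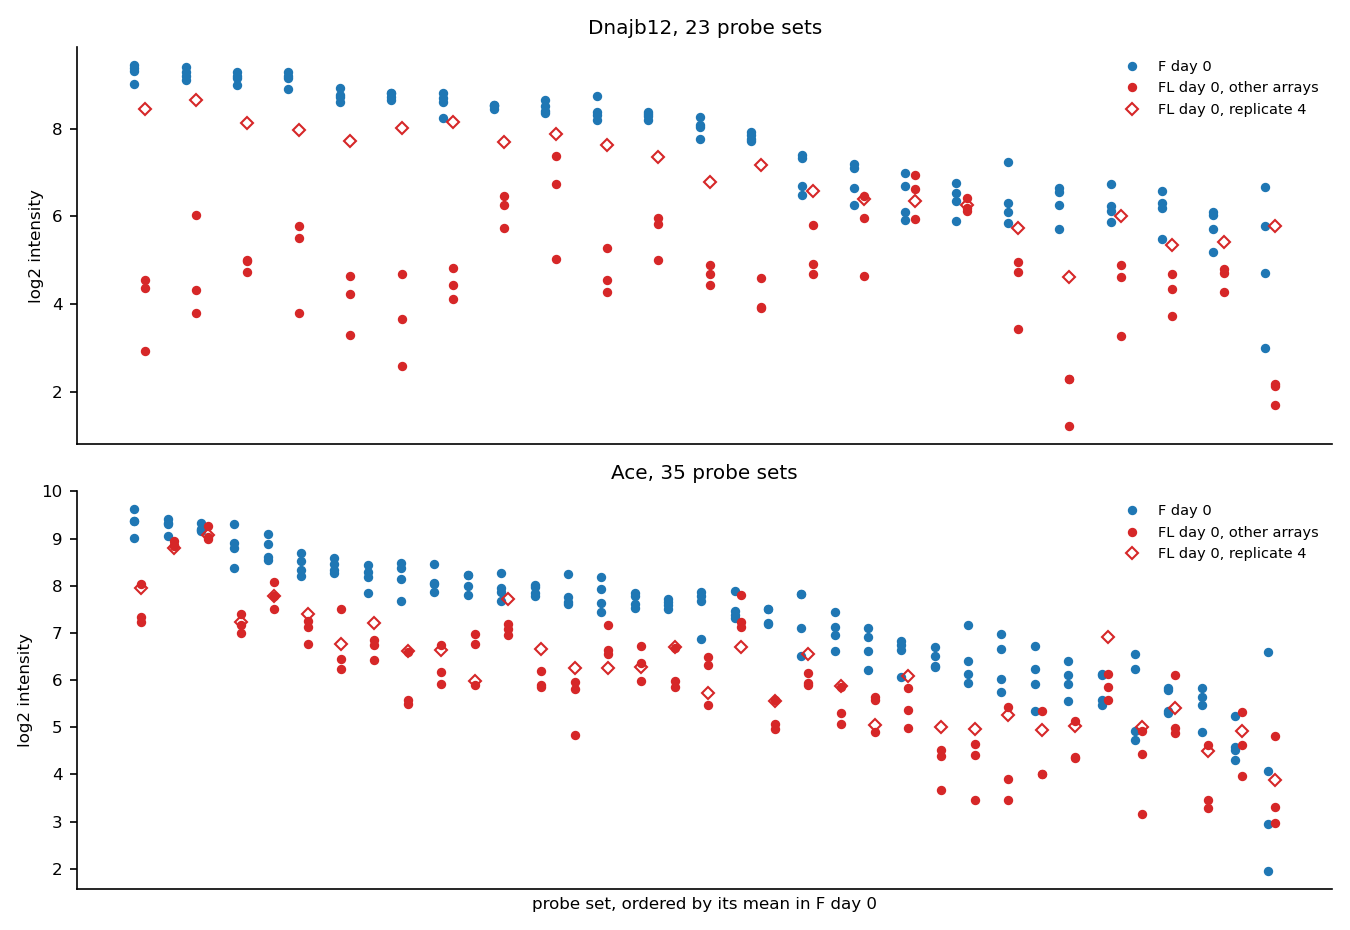
Log2 intensity (vertical axis) of each probe set of Dnajb12 and of Ace, ordered by the mean in F, on the 4 F arrays (blue) and the 4 FL arrays (red, replicate 4 as an open diamond) at day 0. For Dnajb12 replicate 4 lies between F and the other FL arrays in most probe sets, and for Ace the 4 FL arrays lie together.

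The genes next to Dnajb12 on chromosome 20 are P4ha1, a prolyl hydroxylase of collagen, and Oit3 on one side and Ddit4 and Ascc1 on the other. P4ha1 differed by -0.07, Oit3 by -0.14 and Ascc1 by -0.30, none called. Ddit4, also known as REDD1, an inhibitor of the growth kinase mTORC1 that is induced by hypoxia, fasting and glucocorticoids, read 7.18, 7.61, 7.71 and 7.48 in F and 6.89, 6.28, 6.56 and 6.86 in FL. FL lay below F on all 4 arrays, and the difference of -0.85 ± 0.21 missed the threshold (adjusted p = 0.138), which it passed in a fit of the day 0 arrays alone (0.0447). L and LF arrays at day 0 were also below F, from 6.36 to 7.10, where Dnajb12 was not low. No other listed chaperone gene was called. Of 15 measured cytosolic chaperones and co-chaperones 0 were called and the median difference was -0.04 (0.02 with quantile normalization), and of 16 measured folding genes of the endoplasmic reticulum 0 were called with a median of 0.03 (0.10 with quantile normalization, with 1 lower in place of 5). Both lists were chosen after values were seen, and 1 and 0 of their members, respectively for the reticulum and the cytosol, had an unadjusted p under 0.05 in limma.

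Pitpnm1 was lower on the FL arrays than on any other day 0 array. It encodes a membrane-associated phosphatidylinositol transfer protein, which returns the lipid to the plasma membrane during signalling. F arrays read 7.35, 6.93, 6.82 and 7.39 and FL arrays 6.44, 6.22, 6.08 and 6.10. The groups did not overlap, and the difference was -0.91 ± 0.15 (adjusted p = 0.00123), or 1.88-fold. All 26 probe sets were lower in FL, 4 of them called. L arrays at day 0, at 7.64, 7.66, 7.58 and 7.33, and LF arrays, at 7.34, 7.54, 7.51 and 7.41, were within the upper F range or above it. FL minus F was -0.79 at day 7 and -0.81 at day 10 (adjusted p = 0.00554 and 0.0187), and LF minus L at day 0 was -0.10. The difference between the pairs was -1.01 (adjusted p = 0.0281). Pitpnm1 is annotated on chromosome 1, and its 4 nearest measured neighbours there (Ndufv1, Gstp1, Coro1b and Ptprcap) differed by -0.14 to 0.05, none called. Ace and Pitpnm1 were the 2 genes called in FL against F at day 10, and both were among the 59 called at day 7. Neither was called at day 10 without FL replicate 3 or 4 or without F replicate 1, 2 or 3 of that day, and the day 7 count ranged from 18 without F replicate 1 to 114 without FL replicate 1.

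Asns, Atf5 and, past the threshold only with some settings, Nupr1 were higher in FL. All 3 belong to the integrated stress response, in which phosphorylated eIF2 alpha lowers general translation and raises the factor ATF4, which then binds elements upstream of amino acid and survival genes. Asns encodes asparagine synthetase, a standard readout of amino acid shortage. Atf5 encodes a factor of the ATF4 family, and Nupr1 a small chromatin protein induced by many stresses.

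The promoter windows of these genes are shown because these genes were high on the same arrays. They run from 250 bases before to 50 after the start site and come from RefSeq on build GRCr8. Asns lies at chr4:36769366-36769665, Atf5 at chr1:104434746-104435045 and Nupr1 at chr1:190645852-190646151, all on the minus strand and printed 5′ to 3′ of the gene. Capitals mark TGATGNAA, the core of the composite C/EBP-ATF element, searched on both strands.
Asns: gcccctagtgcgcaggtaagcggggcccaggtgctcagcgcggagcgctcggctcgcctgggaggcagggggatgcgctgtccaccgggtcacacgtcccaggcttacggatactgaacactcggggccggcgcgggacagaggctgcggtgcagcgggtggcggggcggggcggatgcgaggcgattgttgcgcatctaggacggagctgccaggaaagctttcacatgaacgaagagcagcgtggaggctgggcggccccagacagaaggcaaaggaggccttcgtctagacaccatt
Atf5: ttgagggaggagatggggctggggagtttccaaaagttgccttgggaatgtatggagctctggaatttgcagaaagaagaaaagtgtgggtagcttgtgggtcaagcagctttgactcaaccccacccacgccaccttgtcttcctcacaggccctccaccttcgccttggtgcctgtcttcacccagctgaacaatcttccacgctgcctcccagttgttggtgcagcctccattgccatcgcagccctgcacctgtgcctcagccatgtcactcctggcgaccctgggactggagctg
Nupr1: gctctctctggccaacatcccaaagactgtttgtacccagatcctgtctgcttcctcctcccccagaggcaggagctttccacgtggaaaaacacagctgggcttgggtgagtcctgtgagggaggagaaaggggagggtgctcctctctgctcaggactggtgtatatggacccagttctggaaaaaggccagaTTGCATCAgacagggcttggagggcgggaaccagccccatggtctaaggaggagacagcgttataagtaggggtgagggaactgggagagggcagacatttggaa
The Nupr1 window holds 1 match, on the opposite strand to the gene, at bases 196 to 203 of the window. The letters are not in the Asns and Atf5 windows. Windows follow the annotated start site, and whether kidney transcripts start there was not tested. Absence from a window therefore says nothing of promoter sequence outside it. Of all 33469 windows 1332 (3.98%) hold the motif, and of the 23 windows of measured stress response genes 4 do (Fgf21, Nupr1, Slc7a1 and Trib3).

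Asns read 5.61, 5.67, 5.86 and 5.74 in F and 7.18, 7.07, 6.74 and 6.01 in FL. FL lay above F on all 4 arrays, with replicate 4 nearest to F, and the difference was 1.03 ± 0.17 (adjusted p = 0.00123), or 2.04-fold. All 13 probe sets were higher in FL, 0 of them called. FL replicate 4 was the lowest FL array in 12 of them, and without it the difference was 1.28.

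Atf5 followed the same order of arrays, at 5.75, 5.78, 5.41 and 5.65 in F and 6.49, 6.56, 6.45 and 5.92 in FL. Replicates 1 to 3 of FL stood together and replicate 4 was again nearest to F. The difference was 0.70 ± 0.12 (adjusted p = 0.00161), with all 10 probe sets higher, 1 of them called. The adjusted p of the gene was 0.064 without the probe set that differed most. Nupr1 read 7.11, 6.89, 7.19 and 7.46 in F and 8.49, 8.33, 8.26 and 7.72 in FL. These groups did not overlap either, and the difference of 1.04 ± 0.23 just missed the call (adjusted p = 0.0651), which it passed under 6 of 16 alternatives, among them the replicate block (adjusted p = 0.0181) and quantile normalization (0.00352).

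The 3 arrays with low Dnajb12, FL replicates 1 to 3, were thus the 3 with the highest Asns, Atf5 and Nupr1 among the 8, and FL replicate 4 was the intermediate array for each. This order was not particular to these genes. FL replicate 4 was also the FL array nearest to F for Ace and Nxph4, though not for Pitpnm1, and a link between the genes was not tested. Nupr1 was also high in L and LF at day 0, at 7.47 to 8.19, where Asns and Atf5 were not. FL minus F at day 7 was -0.33 for Asns, 0.08 for Atf5 and -0.68 for Nupr1, and at day 10 0.03, 0.19 and 0.15, none called. The change from day 0 to day 7 was -1.36 for Asns (adjusted p = 0.00598) and -1.72 for Nupr1 (adjusted p = 0.0104), and -0.62 for Atf5, which missed the threshold (adjusted p = 0.265). The neighbours of Asns and Atf5 on each side differed by -0.24 to 0.15, none called.

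Most other genes of the stress response did not pass the test. Of 25 measured members of that list, chosen after values were seen, 2 were called, both higher, against 0.0375% of all genes higher. These were Asns and Atf5, known as called when the list was chosen, so the count was fixed beforehand. The values of the list below include them. The median difference of the list was 0.05 against -0.04 over all genes (0.10 with quantile normalization), and 16 of 25 were higher. Ddit3, the factor CHOP, differed by -0.002, Atf4 itself by 0.14, Trib3, a pseudokinase induced by ATF4, by 0.10, and Psat1 and Phgdh of serine synthesis by 0.14 and 0.09. The sign of Trib3 turned without FL replicate 3 (-0.0060). Ddit4, listed here too, was the lowest at -0.85.

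Nxph4, a secreted ligand of neurexins known from the nervous system, was the weakest of the 6 calls. F arrays read 6.46, 6.18, 5.39 and 5.84 and FL arrays 6.90, 6.82, 6.80 and 6.47. The lowest FL array lay just above the highest F array, and F was spread more widely. The difference was 0.78 ± 0.16 (adjusted p = 0.0283), with all 4 probe sets higher, 0 of them called. The adjusted p lay at or above 0.088 with the mean of probe sets, without the probe set that differed most, in a fit of the day 0 arrays or of the compared groups alone, and without any one of FL replicates 1 to 3 or F replicates 3 and 4. L arrays at day 0 were at 6.82, 6.81, 6.90 and 6.47, the FL level.

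Among genes just outside the threshold, picked after their values were seen, some had FL at or towards the level of L. Retsat, the retinol saturase of chromosome 4, read 10.81, 10.77, 10.69 and 10.50 in F and 11.58, 11.46, 11.04 and 11.05 in FL, with L at 11.50 to 11.73. FL lay above F on all arrays, and the difference of 0.59 ± 0.14 missed the threshold (adjusted p = 0.0818). Retsat was called with the replicate block (adjusted p = 0.00966), with quantile normalization (0.00313), with array medians subtracted (0.00413) and without FL replicate 4 (0.0409). The aldo-keto reductases, which reduce aldehydes and ketones, include close paralogs on chromosome 4 whose probe sets may share signal. Akr1b10 read 8.80, 8.84, 8.53 and 8.50 in F and 8.22, 6.53, 7.87 and 6.51 in FL, a difference of -1.39 ± 0.35 (adjusted p = 0.149, 0.0235 with the block and 0.0362 without FL replicate 1). Akr1b8 read 7.58, 7.29, 6.83 and 7.54 in F and 6.96, 4.90, 6.40 and 4.41 in FL. FL replicates 2 and 4 were at or below the L range of 4.70 to 5.47. Replicate 1 was within the F range and replicate 3 between the ranges, so that the group spanned the range between the strains. Rxrg, the retinoid X receptor gamma on chromosome 13, differed by 0.72 ± 0.17 (adjusted p = 0.0942, and 0.000138 with the mean of probe sets), with F between 4.09 and 4.49 and FL between 4.82 and 5.24. Cyb5b, a cytochrome b5 of the outer mitochondrial membrane, was at -0.66 ± 0.15 (adjusted p = 0.0681), and Scg5, a neuroendocrine chaperone of prohormone convertase 2, at -0.67 ± 0.16 (adjusted p = 0.111). Both were called with the block, at adjusted p = 0.0235 and 0.00694, and Cyb5b also with quantile normalization (0.00313), array medians subtracted (0.00489) and dim genes left out (0.0408).

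Some differences lay in a single probe set of a gene. Probe set use differed in 15 of 7001 genes (0.214%), the first 5 being Dnajb12, Kmo, Ace, Tmem184c and Nrxn2. A second limma test, on each probe set minus its gene value, called 15 probe sets (0.0179%) in 10 genes, 7 of which were also among the 15. Nrxn2, a neurexin, was not called without FL replicate 4 (adjusted p = 0.461) or without F replicate 3 (adjusted p = 0.0976). In Kmo, the kynurenine 3-monooxygenase of tryptophan breakdown on chromosome 13, 1 of 16 probe sets read 5.66, 5.82, 6.08 and 5.74 in F and 8.94, 8.91, 8.66 and 8.96 in FL, while the gene value differed by 0.07. This probe set was at 8.57 to 9.50 in L. In FL it read 7.67, 7.68, 4.84 and 5.71 at day 7 and 8.90, 8.63, 8.46 and 7.84 at day 10. Probe positions and sequences were not used here, so a strain difference in the sequence under a probe and a difference in transcript level cannot be told apart for single probe sets, Ddx5 included. All FL arrays of day 0 thus read at the L level, and 2 FL arrays of day 7 lay within the F range of 5.66 to 6.08 or below it. Tmem184c on chromosome 19 (1.94) and Ggcx, the vitamin K-dependent carboxylase (2.10), and Fam3c (1.55), both on chromosome 4, each held 1 such probe set. At day 7 these differed by -0.18, -0.20 and -0.19, and at day 10 by 1.35, 1.57 and 1.64.

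To place the FL arrays between the strains, probe sets were taken on which the 8 treated F and the 8 treated L arrays (days 7 and 10) were all more than 0.5 apart, which uses no day 0 and no FL array. There were 199 such probe sets with a gene and a chromosome, in 91 genes, and each array was given a position per gene from 0 (mean of treated F) to 1 (mean of treated L). The choice of this description came after values were seen, and no test was run on it. Here too a position can reflect sequence under the probes as well as transcript level. At day 0, 4 to 8 of the 91 genes were past 0.5 on the F arrays, 87 to 90 on the L arrays, and 85 to 88 on the LF arrays. On the FL arrays 11, 13, 15 and 18 genes were past 0.5. FL thus resembled F over most of these genes, with more genes on the L side than any F array had.

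Many of the FL genes on the L side lay on 3 chromosomes other than 10, picked after their values were seen. Chromosomes 4, 13 and 19 held 17 of the 91 genes. Of these 8, 10, 9 and 12 were past 0.5 on the 4 FL arrays and 0 or 1 on the F arrays. Of the other 74 genes 3 to 6 were past 0.5 on FL arrays and 4 to 8 on F arrays. On chromosome 13 all 3 genes (Tor1aip1, Rxrg and Kmo) were involved, with Kmo at 0.93 to 1.04 on all 4 arrays. On chromosome 4 Akr1b10 was at 0.29, 1.42, 0.51 and 1.43, so that the arrays of 1 group differed. Slco1a6 and Atn1, elsewhere on chromosome 4, and Ces1e on chromosome 19 were below 0.5 on every FL array of day 0.

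At day 7 the 17 genes were past 0.5 on FL arrays in 0 or 1 cases, and at day 10 in 1 case on replicate 1 and in 7 to 11 on the others. FL arrays of different days thus differed at these genes. Ace, on 2 probe sets, was at 0.44 to 0.75 in FL at day 0 and at 0.63 to 1.01 at day 7, and past 0.5 on 0 of 4 LF arrays. Dnajb12, Pitpnm1, Asns and Atf5 had no probe set in this set. Whether the origin of the chromosomes or the expression of the genes differed between FL arrays was not tested.

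**Figure D4:**
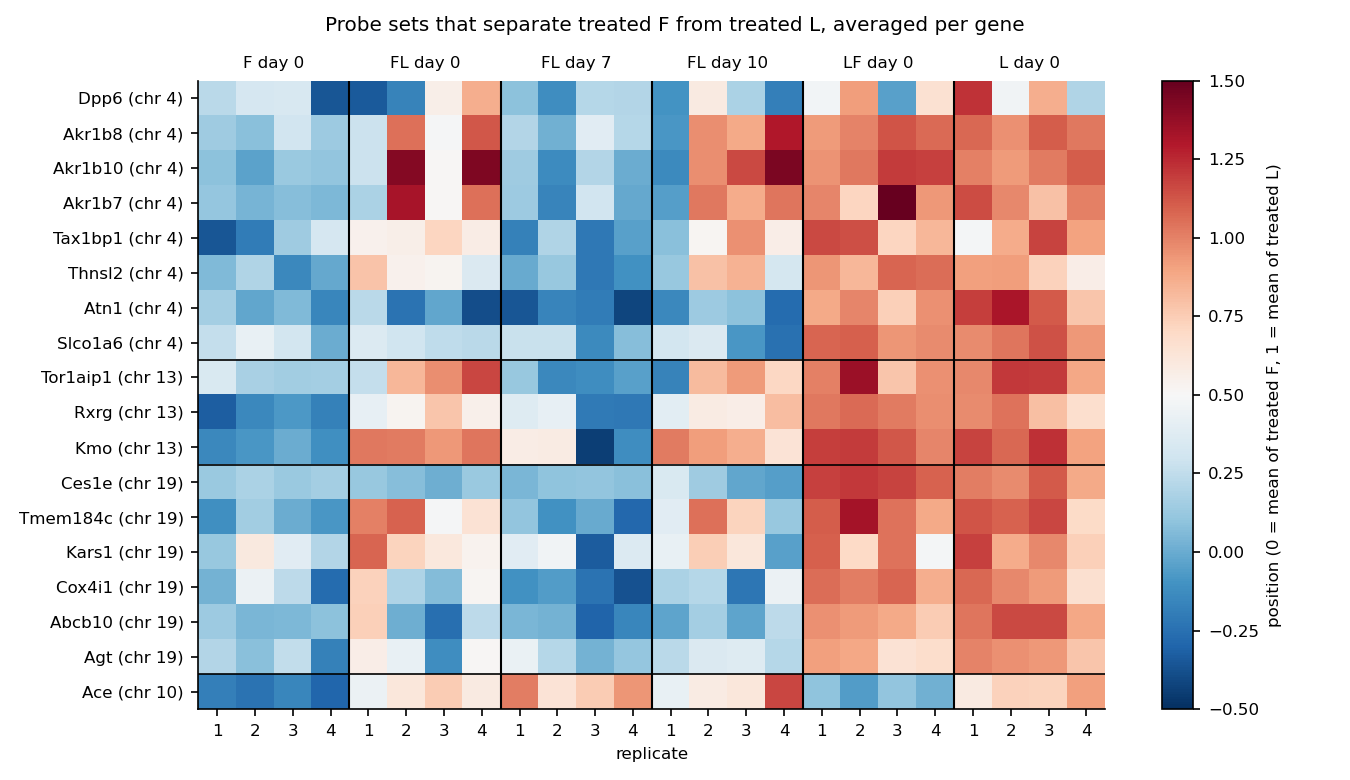
Position of each array (columns, 4 per group) between treated F (0, blue) and treated L (1, red) for the 17 separating genes of chromosomes 4, 13 and 19 and for Ace (rows). FL arrays of day 0 and replicates 2 to 4 of day 10 hold red genes on these chromosomes, and FL arrays of day 7 hold almost none.

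Other kidney functions were described by gene lists, in which Ace was the single member called outside the stress response. Of the renin-angiotensin list 9 genes were measured, and after Ace the smallest p-values were those of Atp6ap2, the prorenin receptor (-0.23 ± 0.09), and of Agt, the precursor of the angiotensins (0.24 ± 0.14), neither called. Agt arrays overlapped, at 7.10 to 7.53 in F and 7.15 to 7.78 in FL. Cyp1a1, whose promoter drives the transgene, was at 4.52 ± 0.31 in F and 4.71 ± 0.24 in FL (SD, n = 4), a difference of 0.19 ± 0.41. Of 10 measured targets of the aryl hydrocarbon receptor 0 were called in limma, and 0 had an unadjusted p under 0.05.

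The lists of distal nephron segments lay below the median of all genes without a call. Of 15 loop and distal tubule genes 14 were lower in FL, with a median of -0.21, led by Calb1, the calcium buffer of the distal tubule (-0.73 ± 0.24), Slc12a3, the thiazide-sensitive cotransporter (-0.32 ± 0.11), and Trpv5, the apical calcium channel (-0.59 ± 0.22). Of 16 collecting duct genes 16 were lower, with a median of -0.17, led by Slc14a2, a urea transporter (-0.36 ± 0.13), and Aqp4 (-0.49 ± 0.18). FL replicate 3 had the lowest array median of the 8, and the part of overall array level in these lists was not tested. With quantile normalization the medians were -0.14 and -0.11, with 14 of 15 and 14 of 16 genes lower.

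In some immune lists and the lipid synthesis list most members had lower values in FL, none called. Of 11 interferon-induced genes 9 were lower, with a median of -0.34, including Oasl2 (-0.49 ± 0.23), Slfn3 (-0.62 ± 0.31) and Mx1 (-0.56 ± 0.29). Of 16 antigen presentation genes 14 were lower, with a median of -0.22, and RT1-Da and RT1-Ba, class II genes of the rat, differed by -0.50 ± 0.16 and -0.52 ± 0.20. The 10 lymphocyte markers had a median of -0.05, near that of all genes, with 6 lower. The 13 macrophage markers had a median of -0.13 with 0 called, and their mean level was 5.48 to 5.81 in F and 5.39 to 5.64 in FL. In bulk tissue fewer cells of a type and less RNA per cell cannot be told apart. Of 17 sterol and fatty acid synthesis genes 15 were lower, with a median of -0.26, led by Insig1, the sterol sensor partner (-0.35 ± 0.13), and Scd, the stearoyl desaturase (-0.51 ± 0.28). The interferon, antigen and sterol medians stayed between -0.30 and -0.15 with quantile normalization, and 0 of these members were called in limma.

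Injury and clock genes did not pass the test. Ccl2, the monocyte chemokine, had the smallest p of 19 tubular injury genes, at 5.77, 5.78, 5.86 and 6.27 in F and 5.51, 4.95, 5.28 and 5.38 in FL. The arrays did not overlap, and the difference was -0.64 ± 0.16 (adjusted p = 0.127). Lcn2, a marker of tubular injury, was at 0.45 ± 0.26, with every FL array above F. Cd44 was at -0.32 ± 0.18, with every FL array below F. Per2, a clock repressor, read 6.64, 6.70, 6.64 and 6.70 in F and 7.03, 6.95, 6.86 and 7.25 in FL. Its difference of 0.35 ± 0.14 was not called (adjusted p = 0.999), although no array overlapped. Nr1d1, another clock repressor, differed the other way by -0.42 ± 0.25, also without overlap and not called. The 11 clock genes had 0 calls and a median of 0.004. Of all 7997 genes 88 (1.10%) had every FL array above every F array and 202 (2.53%) every FL array below. The time of day of collection is not given in the labels, and its part in the Per2 difference was not tested.

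The remaining lists also held no call. Their medians ran from -0.22 (3 red cell genes) to 0.16 (7 adrenal cortex genes, 6 of them higher), with 17 proximal tubule genes at -0.03 and 26 fatty acid oxidation genes at -0.12. The adrenal cortex genes were dim, with a mean level of 3.65 to 3.75 in F and 3.74 to 3.94 in FL. Over all genes the mean level was 5.82 to 5.85 in F and 5.72 to 5.86 in FL. With quantile normalization the median turned to 0.02 for the proximal tubule, 0.02 for podocytes, 0.0080 for endothelium and 0.004 for the kallikrein-kinin list, each below 0 as deposited.

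**Figure D5:**
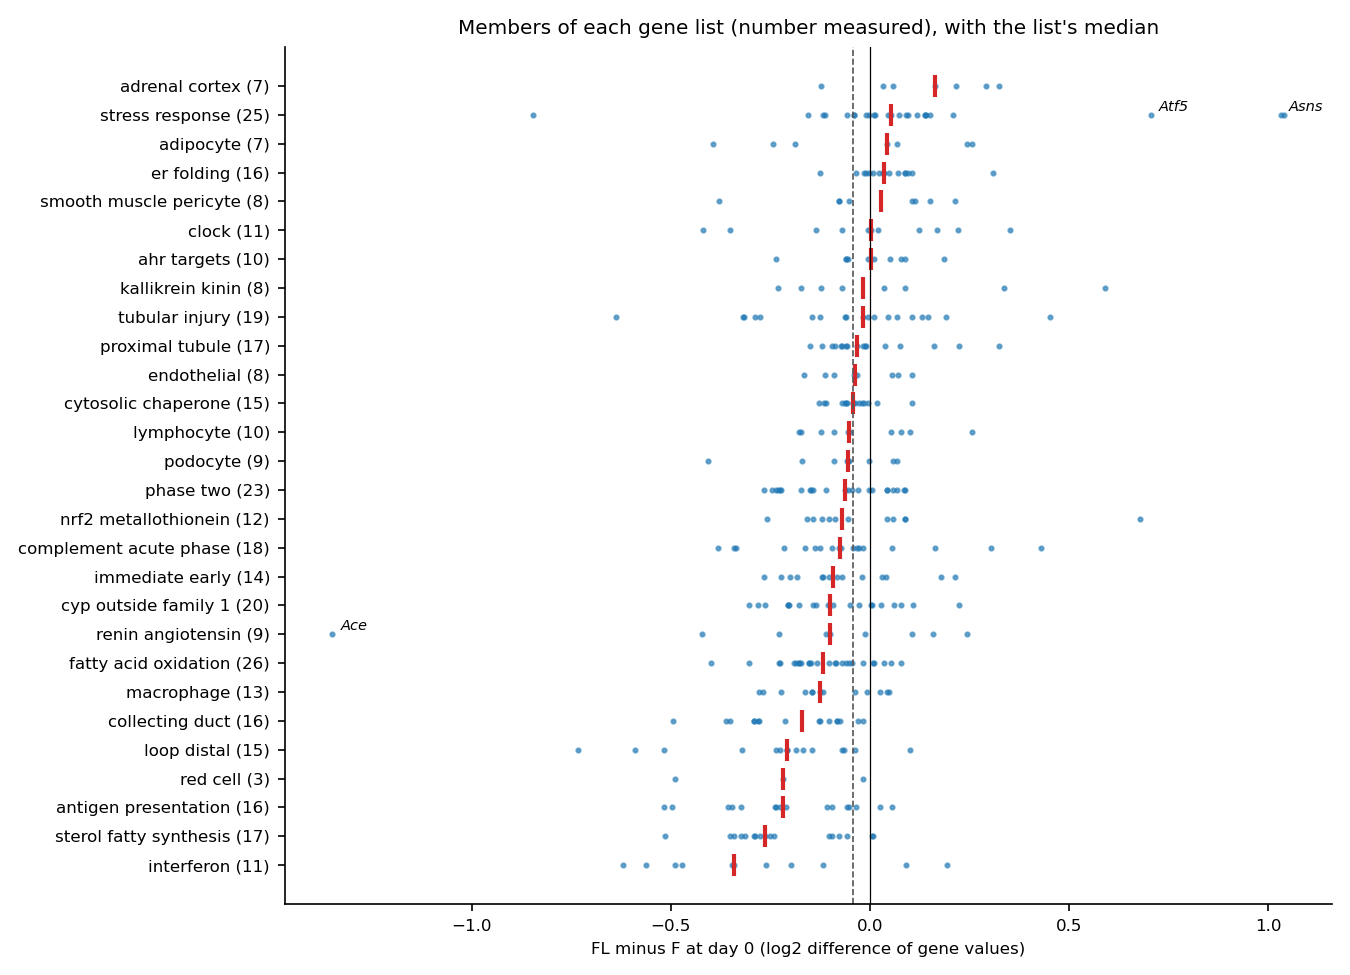
FL minus F at day 0 (log2 difference, horizontal axis) for each measured member (points) of the gene lists (rows, number measured in brackets), with the list's median as a red bar and the median of all genes, -0.04, as a dashed line. Ace, Asns and Atf5 are the list members past the test, and the interferon list has the lowest median at -0.34.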

How the data were processed

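Total kidney RNA, depleted of ribosomal RNA and labelled with biotin, was hybridised to 1-colour exon arrays, per the labels' protocols. The authors deposited 1 log2 intensity for each probe set and array, made with RMA, per the submitters' processing notes, which also name limma, both without versions. Settings and filters are not known here. Of 92401 probe sets, with 0 missing values, 85406 had 1 gene symbol in the platform annotation, 1803 several and 5192 none. Symbols were updated through the GRCr8 gene table (1876 of 8016), which also gave chromosome and order. One gene of the naming rule is not reported here.

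Gene values (7997 genes) were Tukey median polishes over the 48 arrays. They were fitted with limma 3.58.1 in R 4.3.3 with 1 mean per group, eBayes and Benjamini-Hochberg adjustment over all genes. Using all 48 arrays, the fit takes its spread from every group. Probe set use was tested with diffSplice. On simulated data with unequal spreads that test called more unchanged genes than its threshold states, so a limma test on probe set minus gene value, added after seeing the data, stands beside it. Figures used matplotlib 3.10.9.

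Replicate numbers were taken to pair arrays, since file names given in the labels begin alike within a number. The block was an alternative. Deviations of same-numbered F and FL arrays correlated at 0.019 to 0.155 (2 of 4 over 0.1), and those of other pairs at a mean of -0.03. Alternatives were the block, quantile normalization, subtracting array medians, the mean of probe sets, leaving out the probe set that differs most or the dimmest 33.3% of genes, smaller fits, and leaving out each array. The number of arrays limits the precision.

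Genes were named by a rule: all called genes, the 5 smallest p for probe set use, Ace, Agt and Cyp1a1, up to 3 per list and the measured neighbours of called genes. Any other gene was picked with its values known. Some measured genes of the rule have no values printed here, among them the neighbours of Nxph4 and leading members of several lists. The comparison, its members and the lists were chosen with earlier results of these data known. No step was taken to separate cell types.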

Additional observations from a re-analysis of the deposited data

Results flagged for a closer look

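An array stood apart from the other 3 of its group in 6 of 94 gene and group pairs tested with Dixon's criterion, where chance gives about 1 in 20. In FL these were Dnajb12 replicate 4, at 7.40 against 4.65 to 5.06, and Atf5 replicate 4, at 5.92 against 6.45 to 6.56. In F they were Ace replicate 3, at 7.42 against 7.58 to 7.61, and in replicate 4 Cyp1a1 at 4.98 against 4.33 to 4.44, Atp6ap2 at 9.97 against 9.87 to 9.88, and Nr1d1, a clock repressor, at 8.90 against 8.77 to 8.79.

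The FL minus F difference itself changed between groups of arrays in limma interaction tests. From day 0 to day 7 it changed by -1.36 for Asns, 2.52 for Dnajb12, -1.72 for Nupr1 and -1.16 for Per2, and from day 0 to day 10 by 2.71 for Dnajb12. Set against L minus LF at day 0 it differed by 1.09 for Asns (adjusted p = 0.0483), -2.57 for Dnajb12, 0.90 for Per2 (adjusted p = 0.0417) and -1.01 for Pitpnm1. These contrasts share the day 0 arrays of FL and F. For Per2 FL minus F at day 0 was 0.35 and not called. Other clock genes also differed between the pairs, Bmal1 by -2.25, Dbp by 1.56 and Per3 by 0.96. In these genes LF minus L at day 0 was itself called, at -1.90, 1.40 and 0.83. Causes were not tested.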

How the results depend on the processing

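The count of 6 called genes was 11 with the replicate block, 11 with quantile normalization, 10 with array medians subtracted and 1 (Ace) in a fit of the compared groups alone, which has fewer arrays to estimate the spread. It was 5 to 8 with 1 array left out, highest without FL replicate 4. The replicate block kept all 6. Without the block, 59 genes were called at day 7 and 2 at day 10, against 220 and 5 with it, and 1 and 0 in fits of the compared groups alone. Day 10 gave 10 with quantile normalization. LF minus L at day 0 gave 20, and 42 with quantile normalization. The difference between the pairs gave 12, and 21 with quantile normalization, and the change from day 0 to day 7 gave 5, and 8 with the block. With 1 array left out day 7 ranged from 18 (without F replicate 1) to 114 (without FL replicate 1), day 10 from 0 (without any 1 of 5 arrays) to 6 (without FL replicate 1 or F replicate 4), LF minus L from 13 to 24, the pair difference from 6 (without LF replicate 3) to 14, and probe set use from 5 (without FL replicate 4) to 22 (without F replicate 4), with 9 without FL replicate 3 or F replicate 1, against 15. Of 52 gene results 35 kept direction and side of the threshold throughout, and 4 changed sign: Marchf10 (0.023 with array medians subtracted, and -0.10 to 0.020 with 1 array left out, the last without FL replicate 1), Kcnh6 (0.030 with the mean of probe sets), Trib3 (-0.0060 to 0.15 with 1 array left out) and P4ha1 (-0.17 to 0.011), both turning without FL replicate 3. Causes were not tested. Depth here means signal, and dim probe sets limit small differences.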
